A study of Mus musculus with 20 samples.

Results

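The regions described here are 2911 stretches of the mouse genome, away from annotated transcript starts, where a peak of H3K4me1 was listed in both genotypes that lack Tet2 and in neither genotype that carries it. H3K4me1 is monomethylation of lysine 4 of histone H3. The members were found by merging the 4 H3K4me1 peak lists wherever peaks shared 1 bp and keeping autosomal regions with a peak in Tet2-/- and in Ep300Δ/Δ Tet2-/- cells, none in WT or Ep300Δ/Δ cells, and more than 3000 bp to the nearest start. They made up 3.68% of the 79071 distal autosomal regions, which in turn belonged to 134563 autosomal regions in all. Members were chosen by the presence and absence of H3K4me1 peaks in these lists, so the H3K4me1 values below describe them and test nothing. "Gained" is used only in the sense of this rule: a list without a peak is not a measurement of zero H3K4me1.

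The study performed ChIP-seq on lineage-negative (Lin-) bone marrow cells, the marrow fraction left after removal of mature blood cells and rich in hematopoietic stem and progenitor cells. All 4 genotypes carried loxP-flanked Ep300 alleles (Ep300 fl/fl) and all mice received poly(I:C), which induces the Mx1-Cre transgene where it is present. WT mice had no Cre. p300 Knockout mice (Ep300Δ/Δ) carried Mx1-Cre, which removes Ep300, the gene of the acetyltransferase p300, from interferon-responsive cells and not from blood cells only. Tet2 Knockout mice (Tet2-/-) were germline null for Tet2 and had no Cre, and p300 Tet2 Knockout mice (Ep300Δ/Δ Tet2-/-) combined both. The mice were on a C57BL/6 background, and poly(I:C) was given to young adults. One library per genotype and histone mark was deposited, so no difference between genotypes has a replicate check and none was tested. Genotype and library cannot be told apart.

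TET2 oxidizes 5-methylcytosine, the first step by which methylated CpG sites lose their methyl group, and much of its activity in blood cells is known to fall on enhancers. H3K4me1 marks enhancers whether they are active or only primed. Active enhancers carry acetylation of H3 lysine 27 (H3K27ac), which p300 deposits, while H3K4me3 marks promoters. Methylated CpG is the substrate of TET2, so the letters under the peaks are shown first.

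The sequences are the 200 bases around the Tet2-/- summit of members with high enrichment and of members acetylated in both Tet2-null lists and in neither other list (mm10, forward strand). Capitals mark matches to one of the 11 motifs searched. The first 3 belong to members among the strongest, the third of which was also acetylated, and the last 3 to the acetylated members next in rank. They are named by the gene with the nearest start.
CT010445.1: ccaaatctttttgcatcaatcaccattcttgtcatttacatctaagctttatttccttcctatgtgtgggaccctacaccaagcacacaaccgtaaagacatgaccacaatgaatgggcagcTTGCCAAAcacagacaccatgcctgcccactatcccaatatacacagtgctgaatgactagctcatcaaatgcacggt
Osbpl9: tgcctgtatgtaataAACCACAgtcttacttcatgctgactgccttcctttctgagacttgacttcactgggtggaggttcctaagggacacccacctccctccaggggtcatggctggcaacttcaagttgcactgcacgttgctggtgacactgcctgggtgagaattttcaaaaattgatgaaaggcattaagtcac
Mir6368: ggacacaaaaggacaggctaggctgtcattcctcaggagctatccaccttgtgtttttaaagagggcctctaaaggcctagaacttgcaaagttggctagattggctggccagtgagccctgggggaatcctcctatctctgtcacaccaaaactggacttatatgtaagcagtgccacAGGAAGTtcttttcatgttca
Arfgef1: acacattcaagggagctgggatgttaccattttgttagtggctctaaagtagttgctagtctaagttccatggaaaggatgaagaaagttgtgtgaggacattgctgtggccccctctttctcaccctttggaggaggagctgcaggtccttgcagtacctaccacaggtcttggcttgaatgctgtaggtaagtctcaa
Iyd: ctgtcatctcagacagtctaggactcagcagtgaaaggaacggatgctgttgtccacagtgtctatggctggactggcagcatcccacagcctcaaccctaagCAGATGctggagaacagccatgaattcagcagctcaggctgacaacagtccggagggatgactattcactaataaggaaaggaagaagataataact
Gm25007: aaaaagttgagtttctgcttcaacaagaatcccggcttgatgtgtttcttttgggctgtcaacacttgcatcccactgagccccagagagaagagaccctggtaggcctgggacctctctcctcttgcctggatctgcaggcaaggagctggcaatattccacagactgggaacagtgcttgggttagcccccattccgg
The CT010445.1 window (chr17:74186293-74186492) held 1 CEBP match and 2 CpG sites, and the Osbpl9 window (chr4:109136968-109137167) held 1 RUNX match and 1 CpG. The Mir6368 window (chr13:28616536-28616735) held an ETS match and no CpG, and the Arfgef1 window (chr1:10280093-10280292) held neither a match nor a CpG. The Iyd window (chr10:3634225-3634424) held 1 E-box and 2 CpG sites. The Gm25007 window (chr15:48584252-48584451) held 2 CpG sites and no match. These windows thus had between 0 and 2 CpG sites in 200 bases and shared no single motif.

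The presence of a peak in 4 lists allows 15 patterns. Regions with a peak in all 4 genotypes were the most frequent, at 24028 (30.4% of distal regions), and peaks listed in WT alone followed with 10005. The mirror pattern, a peak in WT and Ep300Δ/Δ and none in either Tet2-null list, held 2200 regions, 2.78% of distal regions, so gained regions outnumbered lost ones 1.32 to 1. This ratio stayed above 1 under each alternative tried, and reached 5.11 when peaks with a −log10 q under 5 were left out of all 4 lists. The other pairings gave 5331 regions for WT with Tet2-/-, 1638 for WT with Ep300Δ/Δ Tet2-/-, 1590 for Ep300Δ/Δ with Tet2-/-, and 1549 for Ep300Δ/Δ with Ep300Δ/Δ Tet2-/-. Of the 6 pairings the members were thus the second most frequent. Before the distance rule, 4417 autosomal regions had the gained pattern and 65.9% of them were distal, against 56.7% of mirror regions and 58.8% of all regions.

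**Figure D1:**
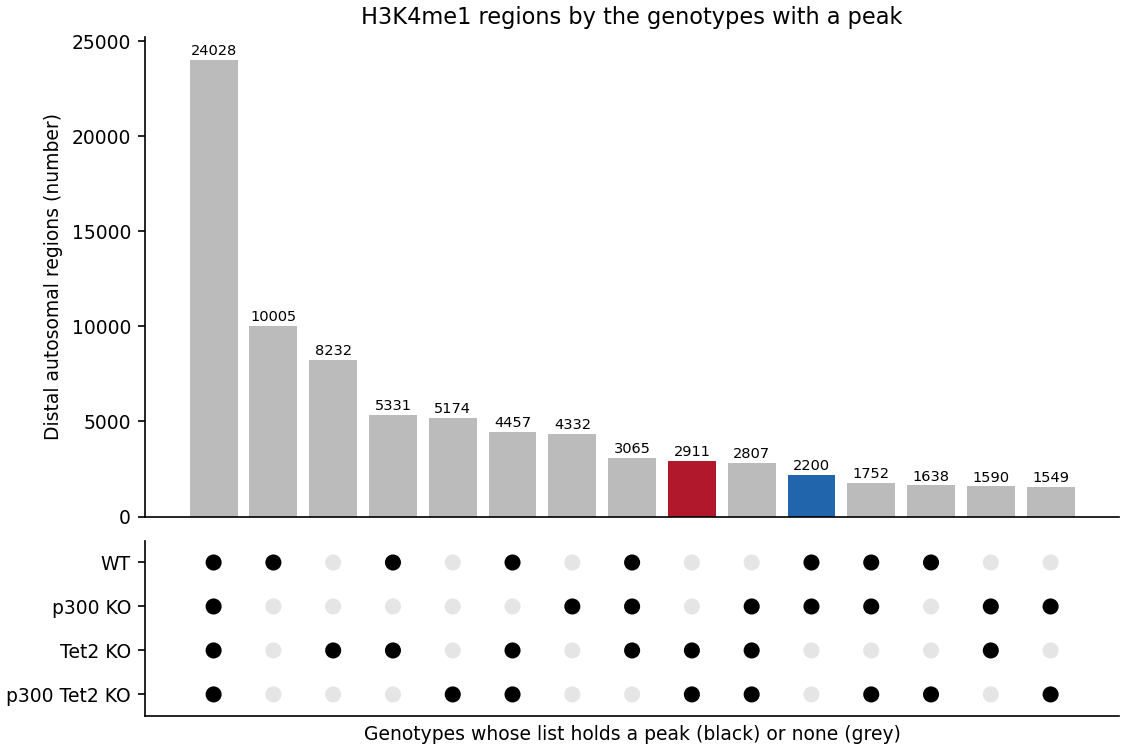
Number of distal autosomal H3K4me1 regions (y axis) for each combination of genotypes whose list holds a peak (black dots below; p300 KO is Ep300Δ/Δ and Tet2 KO is Tet2-/-). The 2911 gained regions are the red bar and the 2200 lost regions the blue bar, beside 24028 regions with a peak in all 4 genotypes.

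The members were modest peaks. MACS2 fold enrichment over the H3 library had a median of 4.64 in Tet2-/- cells (lowest 1.75, highest 11.7), against 5.08 over the whole list, and of 4.28 in Ep300Δ/Δ Tet2-/- cells (lowest 1.87, highest 10.5), against 4.68. Ranked by fold within its list, the median member stood at percentile 40.1 in Tet2-/- and 39.1 in Ep300Δ/Δ Tet2-/-, whereas regions present in all 4 genotypes had medians of 71.4 and 68.8. The mirror regions were modest too, with median percentiles of 38.3 in WT and 35.4 in Ep300Δ/Δ and with both peaks above the list medians in 14.0%. Both peaks lay above the median of their lists in 500 members (17.2%) and within the strongest 10% in 4. In 164 members at least one of the peaks had a q of 0.05 or more, and in 659 (22.6%) both had a −log10 q of 5 or more. The median width was 438 bp, against 406 bp for mirror regions and 967 bp for regions present in all 4.

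Many members lay close to H3K4me1 of the Tet2-carrying genotypes. A WT or Ep300Δ/Δ peak was listed within 500 bp of 948 members (32.6%), within 1000 bp of 1314 (45.1%) and within 10000 bp of 2323 (79.8%), and only 126 were more than 50000 bp from one. The median distance was 1551 bp, and that of mirror regions to the nearest Tet2-null peak was 976 bp. On a log scale the distances formed a near and a far group on either side of about 1000 bp, so the members hold both flanks of existing H3K4me1 regions and sites set apart from them.

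**Figure D2:**
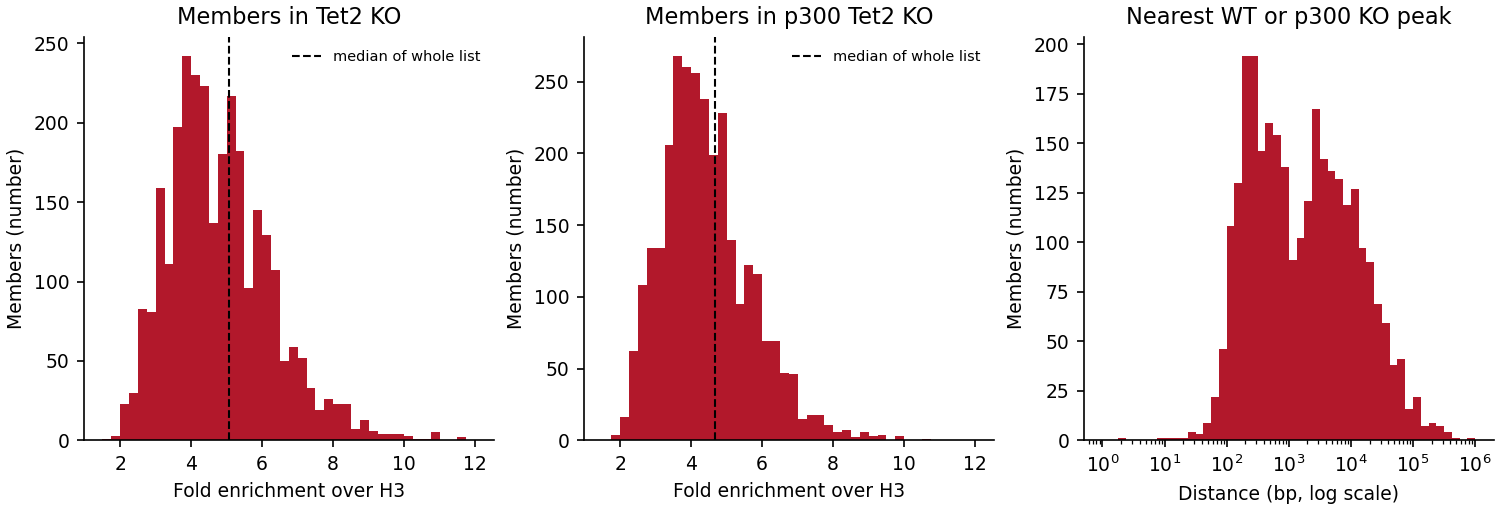
Histograms of the 2911 members by fold enrichment over H3 in Tet2-/- (left) and Ep300Δ/Δ Tet2-/- cells (middle), with the median of each whole list dashed, and by distance to the nearest WT or Ep300Δ/Δ peak (right, log axis). Most members lie below the list medians of 5.08 and 4.68, and the distances fall into groups below and above 1000 bp.

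The 10 members strongest in both lists were between 219 and 551 bp wide. Among them, a region 3942 bp from CT010445.1 at chr17:74186160-74186557 had folds of 9.85 in Tet2-/- and 8.46 in Ep300Δ/Δ Tet2-/-, in which order pairs of folds are given below, and its nearest WT peak at 8206 bp. Another sat in an intron of Osbpl9, of the oxysterol-binding protein family, at chr4:109136808-109137222 with folds of 9.17 and 8.46, and WT H3K4me1 was listed 165 bp away. A further one, at chr13:28616407-28616823 in an intron of 2610307P16Rik, had folds of 8.84 and 9.94. Others were nearest to Sptbn1 (a spectrin), Cdkal1 (a tRNA-modifying enzyme), Gm2477, Rbm47 (an RNA-binding protein), Gm42687 and Enpp5. Of the regions named here, only the Gm2477 region, with its nearest WT peak at 30794 bp and nearest Ep300Δ/Δ peak at 30701 bp, was more than 10000 bp from H3K4me1 of both Tet2-carrying genotypes.

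Regions of the gained pattern lay close to the 3000 bp limit on either side. The members nearest to a start were one at 3016 bp from Ccni, a cyclin gene (chr5:93199935-93200348), and one at 3018 bp from Hcls1 (chr16:36940305-36940748). Just outside were regions at 3000 bp from Ywhae (chr11:75748119-75748604) and at 2991 bp from Ak4 (chr4:101415634-101416286).

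The members' acetylation was read from H3K27ac peak lists that the rule did not use, although peaks of every mark were called over H3, so the lists share that background. Few members were acetylated in any genotype: an H3K27ac peak overlapped 76 of 2911 in WT, 2.61% (exact Clopper-Pearson 95% interval 2.06 to 3.26), 37 in Ep300Δ/Δ, 1.27% (0.896 to 1.75), 82 in Tet2-/-, 2.82% (2.25 to 3.48), and 65 in Ep300Δ/Δ Tet2-/-, 2.23% (1.73 to 2.84). The intervals cover counting error only. Over all distal regions the shares were 10.2% in WT, 5.13% in Ep300Δ/Δ, 7.33% in Tet2-/- and 4.45% in Ep300Δ/Δ Tet2-/-. The members therefore had about the same share in WT as in Tet2-/- cells, while over all distal regions WT was the highest. At mirror regions the share was 7.14% in WT and between 1.59% and 2.41% in the other genotypes. In all, 2757 members (94.7%) had no H3K27ac peak in any of the 4 lists.

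H3K27ac appeared with H3K4me1 at few members. A peak in at least one Tet2-null list and in neither Tet2-carrying list was found at 67 members, 2.30% (1.79 to 2.91). The same was true of 2.35% of all distal regions, so this share did not set the members apart from them. At mirror regions it was 1.05% (0.664 to 1.56). H3K27ac in any of the 4 lists was found at 5.29% of members and 13.4% of all distal regions. The reverse, H3K27ac with Tet2 and none without it, was found at 39 members, 1.34% (0.954 to 1.83), against 4.88% of all distal regions and 5.41% of mirror regions. Among the 500 members with both H3K4me1 peaks above the median fold of their lists, H3K27ac was listed at 16 in WT, 7 in Ep300Δ/Δ, 31 in Tet2-/- and 22 in Ep300Δ/Δ Tet2-/-, that is 3.2%, 1.4%, 6.2% and 4.4%. Among the 1597 members with no WT or Ep300Δ/Δ H3K4me1 peak within 1000 bp, it was listed at 20, 11, 35 and 24. Both subsets were kept by their H3K4me1 peaks in the lists that the rule used, so these counts are a description only.

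The H3K27ac lists differ in length, from 18327 peaks in Ep300Δ/Δ Tet2-/- to 29659 in WT, and the part of length in the members' shares was not tested. With H3K27ac lists of equal size the shares were 1.2% in WT, 0.893% in Ep300Δ/Δ, 1.34% in Tet2-/- and 2.23% in Ep300Δ/Δ Tet2-/-, whose list sets that size and which then had the highest share. With only peaks of a −log10 q of at least 5 in all lists, the members numbered 3081 and the shares were 5.87% in WT and 7.17% in Tet2-/-. Counting H3K27ac peaks within 500 bp of a member gave 6.11% and 5.32%, so WT was then the higher. Peaks at promoters of granulocyte and monocyte markers also differed between the libraries: H3K27ac was listed at 6 of 10 in WT, 3 in Ep300Δ/Δ, 2 in Tet2-/- and 0 in Ep300Δ/Δ Tet2-/-, and the part of cell makeup or library quality in the members' values was not tested. The same markers had H3K4me3 at 6, 4, 5 and 5 of 10, in the same order of genotypes. Progenitor markers, among them Kit, Cd34 and Myb, had an H3K4me3 promoter peak at 10 of 10 in every genotype and H3K27ac at 9, 9, 8 and 8. T cell markers had H3K4me3 at 3, 4, 4 and 4 of 8 and H3K27ac at 4, 4, 4 and 3, with neither mark at Cd3e, Cd4 and Cd8a in any genotype, H3K4me3 at Cd3g in every genotype but WT, and H3K27ac at Cd5 in every genotype but Ep300Δ/Δ Tet2-/-. B cell markers had H3K27ac at 2 of 8 in WT, 1 in Ep300Δ/Δ, 1 in Tet2-/- and 0 in Ep300Δ/Δ Tet2-/-, and H3K4me3 at 4, 4, 3 and 2. Markers of marrow stroma and endothelium had H3K4me3 at 5, 6, 6 and 8 of 8 and H3K27ac at 2, 1, 3 and 1. Erythroid markers had H3K4me3 at 10 of 10 in WT and Ep300Δ/Δ, 7 in Tet2-/- and 9 in Ep300Δ/Δ Tet2-/-, and H3K27ac at 6, 6, 5 and 5. In bulk cells, fewer cells of a type and less mark per cell cannot be told apart.

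**Figure D3:**
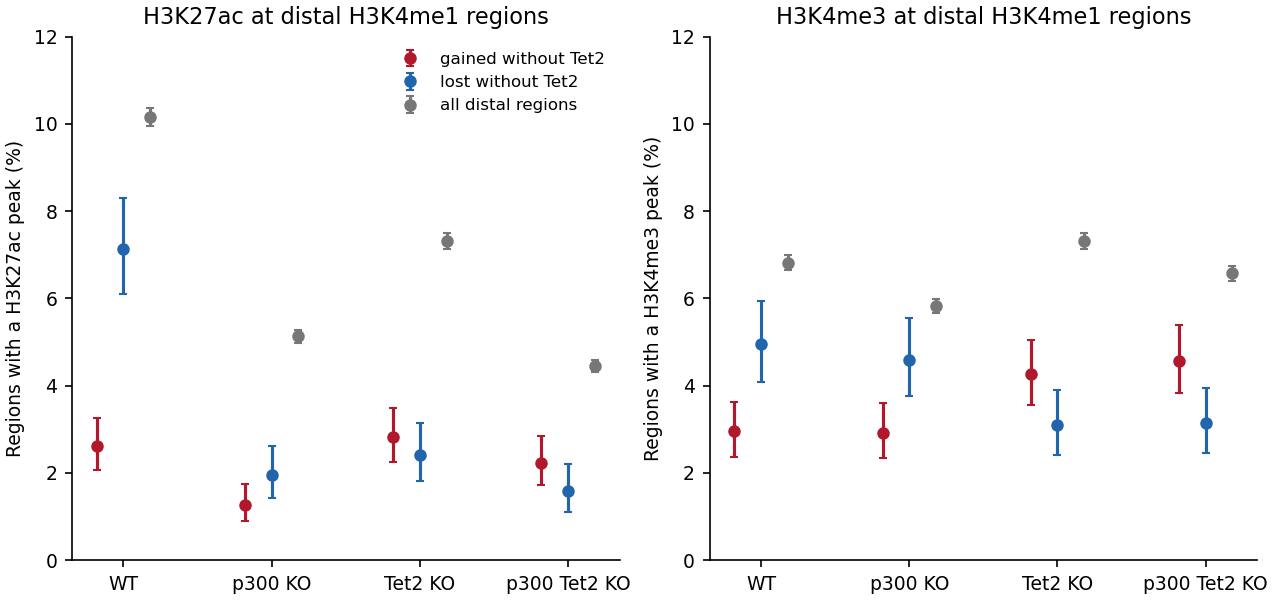
Share of regions (%) overlapping an H3K27ac peak (left) or an H3K4me3 peak (right) in each genotype, for the 2911 gained, 2200 lost and 79071 distal regions; bars are exact 95% intervals for counting error. Gained regions lie between 1.27% and 2.82% for H3K27ac, below all distal regions in every genotype.

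The 9 members acetylated in both Tet2-null lists and in neither other list made up 0.309% (0.141 to 0.586). The share was 0.238% of all distal regions and 0.504% of regions present in all 4 genotypes. No mirror region had this pattern (upper limit 0.168%). It thus did not set the members apart from distal regions at large, though mirror regions lacked it. They lay outside genes in 7 cases. Ranked by H3K4me1 they were nearest to Mir6368, Arfgef1 (an exchange factor for ARF GTPases), Iyd (iodotyrosine deiodinase), Gm25007, Car2 (carbonic anhydrase of red cells), Gm5532, Gm38061, Nap1l1 (a histone chaperone) and Kif11 (a mitotic kinesin). The region near Iyd (chr10:3633932-3634474) was 61845 bp from the nearest WT H3K4me1 peak and 106215 bp from the nearest Ep300Δ/Δ peak. For the Gm25007 region, in an intron of Csmd3 (chr15:48584066-48584570), these distances were 205302 and 205799 bp. The Kif11 region (chr19:37370350-37370670) had folds of 3.18 and 2.73, a WT H3K4me1 peak 83 bp away and H3K4me3 in WT as well. The Car2 region (chr3:14912208-14912490), with an Ep300Δ/Δ H3K4me1 peak 186 bp away and the nearest WT peak at 24900 bp, carried H3K27ac and H3K4me3 in both Tet2-null genotypes and neither mark in the others.

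H3K4me3 was rare at the members as well. A peak overlapped 86 members in WT, 2.95% (2.37 to 3.64), 85 in Ep300Δ/Δ, 2.92% (2.34 to 3.6), 124 in Tet2-/-, 4.26% (3.56 to 5.06), and 133 in Ep300Δ/Δ Tet2-/-, 4.57% (3.84 to 5.39). Over all distal regions the shares were 6.82% in WT, 5.82% in Ep300Δ/Δ, 7.32% in Tet2-/- and 6.58% in Ep300Δ/Δ Tet2-/-. At the members both Tet2-null counts were above both others, which was not the order of all distal regions, and the mirror regions had the opposite order, with 4.95% and 4.59% in WT and Ep300Δ/Δ and 3.09% and 3.14% in Tet2-/- and Ep300Δ/Δ Tet2-/-. New H3K4me3, in a Tet2-null list and in neither other, was listed at 53 members, 1.82%, against 1.78% of all distal regions and 0.409% of mirror regions. The reverse was listed at 7 members, 0.240% (0.0967 to 0.495), against 1.22% of all distal regions and 2.59% of mirror regions. The share with new H3K4me3 was thus that of distal regions at large, and the share with lost H3K4me3 was lower. H3K4me3 in all 4 lists was found at 62 members, 2.13%, and in no list at 2751, 94.5%, against 4.35% and 90.5% of all distal regions.

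By annotation (GENCODE M21), 1601 members lay in introns, 55.0% (53.2 to 56.8), 1111 were intergenic, 38.2% (36.4 to 40.0), and 199 overlapped an exon, 6.84% (5.95 to 7.81). All distal regions were 56.1% intronic, 35.3% intergenic and 8.61% exonic, and mirror regions 58.0%, 31.6% and 10.4%. Members lay farther from starts, with a median of 12726 bp and a greatest distance of 298261 bp, than mirror regions (median 10101 bp). Every autosome held members, from 3.12% of the distal regions of chromosome 15 to 4.29% of those of chromosome 17. Within 5 Mb of Tet2, 13 of 360 distal regions were members, 3.61%.

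The members were spread over many genes. They were nearest to 2429 genes, 14.1% of the 17278 genes nearest to any distal region, and 2052 of these had 1 member. Genes with a member had more distal regions in all (median 6 against 3) and were longer (median 18.4 kb against 10.7 kb). A gene with more distal regions has more places for a member, so this contrast cannot be read as a trait of the members. Of the genes with members, 1582 (65.1%) also had a region present in all 4 genotypes, for which no share over all genes is given. A member and a mirror region shared 345 nearest genes, 14.2% of the genes with members and 19.0% of the 1819 genes with mirror regions. Of all 17278 genes, 1819 had a mirror region and 2429 a member, and the same limit holds for this overlap. At promoters of genes with members, H3K4me3 was listed at 54.2% in WT, 55.5% in Ep300Δ/Δ, 55.2% in Tet2-/- and 55.0% in Ep300Δ/Δ Tet2-/-, and H3K27ac at 44.8%, 41.0%, 42.7% and 39.7%. These promoter shares kept the order seen at the promoters of all 17278 genes for H3K27ac, where they were 41.1%, 37.4%, 39.3% and 35.7%. Over all genes the H3K4me3 shares were 51.1%, 51.4%, 51.6% and 51.1%, with Tet2-/- the highest. At genes with members Ep300Δ/Δ was the highest, as it was at genes with mirror regions (63.7%, 64.3%, 63.6% and 63.3%). The intervals at genes with members overlapped (53.5 to 57.4 in Ep300Δ/Δ and 53.2 to 57.2 in Tet2-/-), so this order did not set them apart.

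Some loci held several members. Cdk6, a cell cycle kinase, had 6 members among its 71 distal regions, all within its introns (chr5:3341485-3531008 for the gene), with folds in Tet2-/- from 4.18 to 9.51 and in Ep300Δ/Δ Tet2-/- from 2.97 to 4.84. Each of the 6 lay within 1358 bp of a WT peak. The pseudogene Gm15599 was nearest to 8 members of 73 regions, and all 8 lay in introns of Arid1b, a subunit of BAF chromatin remodelers that overlapped 10 members of 139 distal regions and 1 mirror region. Cdc42ep3, an effector of the GTPase CDC42, had 5 members of 17, Fut8, a fucosyltransferase, 5 of 34, Vav3, a guanine nucleotide exchange factor, 5 of 54, and Sgms1, a sphingomyelin synthase, 5 of 83. The noncoding AC087871.1 had 4 of 6, Fam171a1 4 of 9, the endocytic scaffold gene Itsn1 4 of 28 and the Rap regulator Sipa1l1 4 of 62. Other genes tied at 4 members. Of those named, Cdk6 had 3 mirror regions, and Sgms1 and AC087871.1 had 1 each, and of the others with 4 members Pde4d had 4 mirror regions, Ube2h 2 and Hivep3 1.

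Neighbouring members formed 207 runs with gaps of at most 10 kb, which held 437 members, and 20 runs had 3 or more. At Itsn1 4 members lay within 13575 bp (chr16:91764562-91778136), and at AC087871.1 4 within 13781 bp (chr19:32990677-33004457), where the folds in Tet2-/- were 8.84, 5.13, 5.42 and 7.82. Another run of 4 (chr11:18945787-18975145) lay in introns of Meis1, a homeobox gene of stem cells and leukemia, which was singled out after its values were seen. Meis1 overlapped 5 members of 41 distal regions and no mirror region, and its 5 members had folds from 2.69 to 6.70 in Tet2-/- and from 3.42 to 8.46 in Ep300Δ/Δ Tet2-/-. It was not alone in this: Grik4 (5 of 17), Rnf150 (5 of 28), Fstl4 (5 of 35), Lpp (5 of 44) and Slco3a1 (5 of 46) also overlapped 5 members and no mirror region, and Fgfr2 overlapped 7 members and 5 mirror regions. Because the nearest starts of the members in Meis1 belong to noncoding genes, these members are not counted under Meis1 in the gene lists.

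Among stem and progenitor regulators, 8 of the 17 genes nearest to a distal region had a member, against 14.1% of all such genes. Of their 319 regions 15 were members, 4.70%, against 3.68% of all. Fli1, an ETS factor, had 3 of 14, all upstream of the gene and within 318 bp of a WT peak. Prdm16, a stem cell regulator, had 3 of 13, all intronic and at least 42306 bp from the nearest WT peak, with folds in Tet2-/- of 5.28, 4.50 and 3.21. The nearest Ep300Δ/Δ peaks to these 3 regions were at 13637, 318 and 803 bp. Runx1 had 2 of 72 and also 1 mirror region. For Fli1 the members thus flanked H3K4me1 of WT cells, and for Prdm16 they were far from WT peaks while 2 of the 3 lay close to an Ep300Δ/Δ peak.

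Erythroid and megakaryocyte genes had the highest share of members of the 10 lists, with 10 of 118 regions, 8.47%, against 3.68% of all, at 7 of 15 genes. They also had the highest share of mirror regions, with 7 of 118, 5.93%, against 2.78% of all. Car2 had 3 of 11, with folds in Tet2-/- of 6.14, 6.14 and 6.48 and in Ep300Δ/Δ Tet2-/- of 3.95, 7.57 and 6.10. Plek, the platelet protein pleckstrin, had 2 of 15. Car2 and Plek also had 1 mirror region each.

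The DNA methylation genes had 5 of 76 regions as members, 6.58%, against 3.68% of all distal regions, and 2 mirror regions, 2.63%. A member was found at 3 of 10 genes, against 14.1% of all genes nearest to a distal region. Dnmt3a, a de novo DNA methyltransferase, had 3 of 16, all intronic, the strongest at chr12:3843303-3844016 with folds of 6.85 and 5.83 and the nearest WT and Ep300Δ/Δ peaks at 7370 and 5871 bp. Tet2 itself had 1 of 13 and also 1 mirror region, the member in an intron (chr3:133523448-133523821), with folds of 4.78 and 2.25, the latter with a −log10 q of 0.858, short of 0.05. Idh2, whose mutant enzyme inhibits TET proteins, had 1 of 4.

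Of the mast cell, basophil and eosinophil genes, 5 of 12 had a member, against 14.1% of all genes nearest to a distal region, and none had a mirror region. Of their 117 regions 5 were members, 4.27%. Over all distal regions 3.68% were members and 2.78% mirror regions, so the share of members was near that at large. The absence of mirror regions among these 117 was not tested. Il5ra, the eosinophil interleukin-5 receptor chain, had 1 of 6, an intronic region with folds of 7.49 and 4.62, Cd200r3, a basophil and mast cell receptor, 1 of 19, and Hdc, histidine decarboxylase, 1 of 7. Myeloid regulators and products had a member at 4 of 25 genes and 4 of 108 regions, 3.70%. Those named were Mmp8, the neutrophil collagenase, with 1 of 2, Itgam, the integrin CD11b, with 1 of 4, and Mpo, myeloperoxidase, with 1 of 3. The myeloid share was that of distal regions at large.

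Lists with a lower share were the lymphoid genes, with 5 of 221 regions (2.26%) and 6 mirror regions, the inflammatory signalling genes, with 5 of 263 (1.90%), and the enzymes of H3K4 methylation and histone acetylation, with 2 of 95 (2.11%). Within them, Notch1, the receptor that directs T cell fate, had 3 of 12, in a run of 5700 bp upstream of the gene (chr2:26525426-26531125), with folds in Tet2-/- of 3.03, 5.04 and 4.05. Foxp1, a transcription factor of B cells, had 2 of 85 and 2 mirror regions. Nfkb1 had 2 of 46, Stat3 1 of 16 and Tnfaip3, an inhibitor of NF-κB signalling, 1 of 15, and Nfkb1 and Tnfaip3 also had 1 mirror region each. Kdm5b, an H3K4 demethylase, had 1 of 17 and the acetyltransferase gene Kat6a 1 of 8. Genes mutated in myeloid leukemia had 10 of 232 regions (4.31%, against 3.68% of all distal regions) at 7 of 17 genes, Ezh2, the H3K27 methyltransferase, among them. Over all genes nearest to a distal region 14.1% had a member. The same list had 4 mirror regions (1.72%). The long neuronal genes had 1 of 28, at Dlg2. The list counts are small, and no list was tested.

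**Figure D4:**
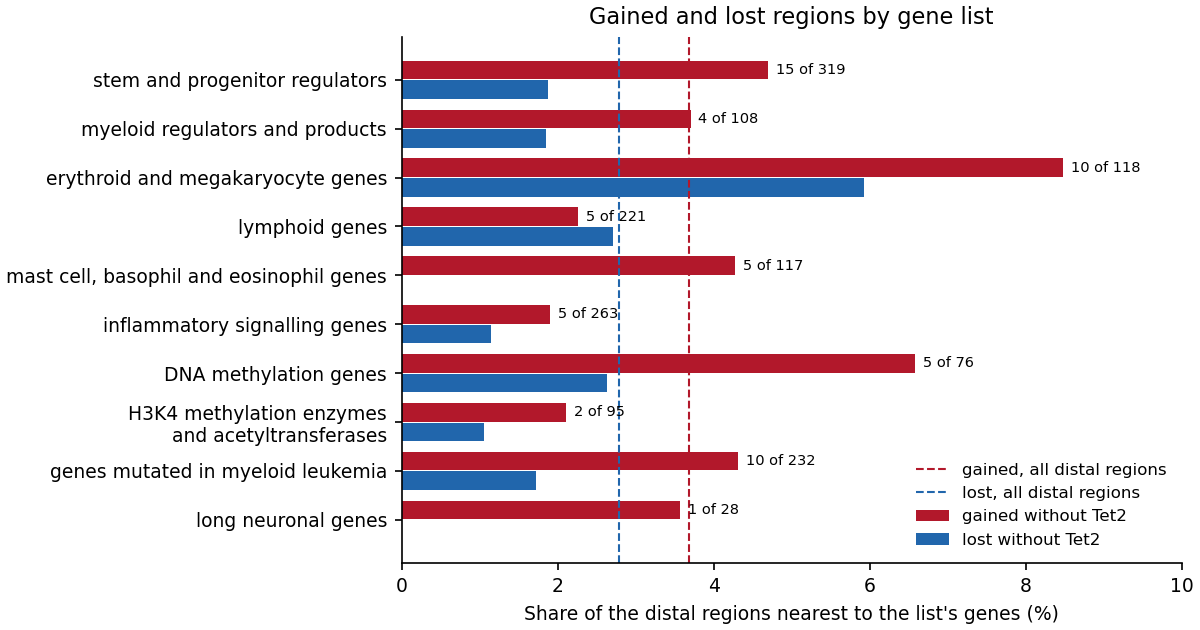
Share (%) of the distal H3K4me1 regions nearest to the genes of each list that were gained (red, with counts) or lost (blue) without Tet2; dashed lines give the shares over all distal regions, 3.68% and 2.78%. Erythroid and megakaryocyte genes have the longest bars in both colours, 8.47% and 5.93%.

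The DNA under the members was slightly poorer in GC and CpG than that of distal regions with a Tet2-/- peak. In the 200 bases around the Tet2-/- summit, GC content averaged 50.8% ± 4.11 (SD over regions, n = 2911), against 51.5% ± 4.23 over the 52421 distal regions with a Tet2-/- peak and 51.4% ± 4.52 around the WT summit of mirror regions. CpG sites numbered 1.37 per 100 bases at members, 1.42 at distal regions with a Tet2-/- peak and 1.52 at mirror regions. Around WT summits of distal regions with a WT peak, GC averaged 51.8% and CpG 1.48 per 100 bases. Mirror regions were thus also below their own background in GC, though not in CpG. No CpG was present in 322 members, 11.1% (9.94 to 12.3), against 10.1% of distal regions with a Tet2-/- peak and 9.86% (8.65 to 11.2) of mirror regions. The intervals of members and mirror regions overlapped, and in 500 bases the order turned, with 1.37% of members and 1.86% of mirror regions. The 500 members with both peaks above the median fold of their lists had 1.16 CpG per 100 bases, 49.6% GC and no CpG in 14.2% (11.3 to 17.6). Mirror regions of that kind had 1.49 CpG per 100 bases, 50.9% GC and no CpG in 12.1% (8.63 to 16.2), and these intervals overlapped.

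Short motifs were searched as plain letters on both strands of the same windows, with N for any base, and the IRF and CTCF motifs by name. ETS factors such as PU.1 and RUNX1 act throughout myeloid progenitors, and GATA factors in erythroid, megakaryocytic and mast cells. The ETS letters AGGAAGT were present in 291 members, 10.0% (8.93 to 11.1), in 8.36% (8.13 to 8.61) of distal regions with a Tet2-/- peak and in 7.0% (5.97 to 8.15) of mirror regions. The RUNX letters TGTGGTT were present in 7.11% (6.20 to 8.11) of members, 6.22% (6.02 to 6.43) of distal regions with a Tet2-/- peak and 4.77% (3.92 to 5.75) of mirror regions. The GATA letters AGATAAG had the other order, with 2.85% (2.28 to 3.52) of members, 2.92% (2.77 to 3.06) of distal regions with a Tet2-/- peak and 4.32% (3.51 to 5.25) of mirror regions. Around WT summits of the 52476 distal regions with a WT peak, the shares were 7.72% for ETS, 5.73% for RUNX and 2.99% for GATA. The ETS and RUNX shares of members were thus above those of mirror regions, with intervals that did not overlap, and the GATA share was below, with intervals that met at their ends. For RUNX and GATA the members' interval held the share of distal regions with a Tet2-/- peak, and for ETS it lay above that share. The mirror interval held the share of distal regions with a WT peak for ETS and RUNX and lay above it for GATA. No test of these shares was made.

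The same order of members and mirror regions was seen in 500-base windows, with ETS in 25.8% of members and 17.4% of mirror regions, RUNX in 17.3% and 12.9%, and GATA in 7.90% and 12.5%. Over distal regions with a Tet2-/- peak these shares were 22.7%, 15.8% and 8.55%, and over those with a WT peak 21.2%, 14.9% and 9.02%. In 200-base windows of the members with both peaks above the median fold of their lists, ETS was present in 9.4% (6.99 to 12.3), RUNX in 6.6% (4.59 to 9.14) and GATA in 3.8% (2.30 to 5.87). In mirror regions of that kind they were present in 7.17% (4.55 to 10.6), 4.89% (2.76 to 7.93) and 3.91% (2.04 to 6.73), and the intervals overlapped for each. In 500 bases the same regions had ETS in 29.2% (25.2 to 33.4) of members and 15.3% (11.5 to 19.8) of mirror regions, with intervals that did not overlap. RUNX was in 18.8% (15.5 to 22.5) and 12.4% (8.91 to 16.6), with intervals that overlapped, and GATA in 9.2% (6.81 to 12.1) and 14.0% (10.3 to 18.4), where they overlapped as well.

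The CEBP letters TTGCNNAA were found in 7.90% of members and 7.36% of mirror regions, the AP-1 letters TGANTCA in 6.42% and 5.73%, and the MYB letters TAACNG in 18.7% and 17.6%. IRF was found in 2.1% and 1.36%, and CTCF in 1.34% and 0.864%, and the intervals overlapped for each of these in the 200-base windows. In 500 bases IRF was found in 7.73% (6.78 to 8.76) of members and 5.41% (4.50 to 6.44) of mirror regions, with intervals that did not overlap. Of the letters that contain a CpG, the ETS form CGGAAGT was in 0.756% (0.474 to 1.14) of members and 1.09% (0.7 to 1.62) of mirror regions, and the E-box form CACGTG in 3.30% (2.68 to 4.01) and 3.91% (3.14 to 4.81), with intervals that overlapped for both. In 500 bases CGGAAGT was in 1.86% and 1.82%. E-boxes of the letters CAGNTG, the most frequent motif, were in 48.9% of members (47.1 to 50.7), 51.8% of distal regions with a Tet2-/- peak and 52.4% of mirror regions (50.3 to 54.5). Where both peaks were above the median fold of their lists the order turned, with 52.4% (47.9 to 56.9) of members and 45.3% (39.6 to 51.0) of mirror regions, and the intervals overlapped in either case. A match describes the letters of the window and not binding of a factor.

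**Figure D5:**
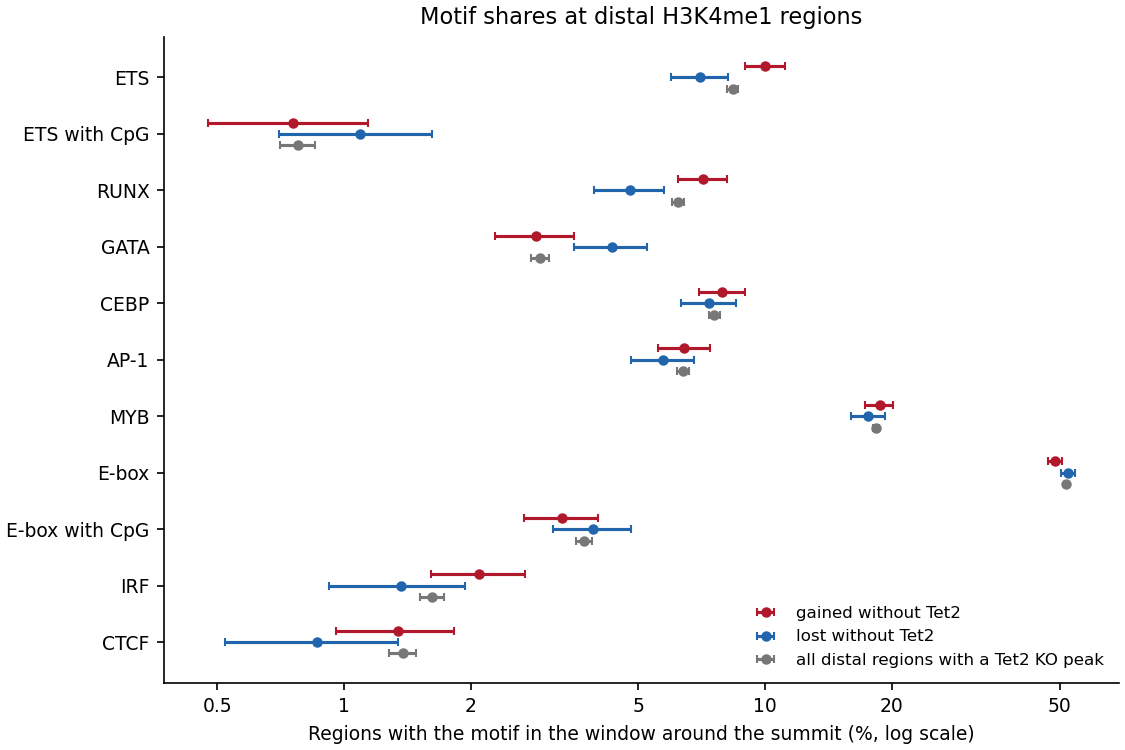
Share of regions (%, log axis) with each motif in the 200 bases around the summit, for gained regions (Tet2-/- summit), lost regions (WT summit) and all distal regions with a Tet2-/- peak; bars are exact 95% intervals for counting error. ETS reaches 10.0% in gained and 7.0% in lost regions, and GATA 2.85% and 4.32%.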

How the data were processed

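The data were 12 ChIP-seq peak lists, for 3 histone marks in each of 4 genotypes, with 1 library behind each list. H3 and H3K27me3 libraries were not analysed here on their own. Per the submitters' processing notes and the study's methods, the authors used cutadapt 1.15 for trimming, BWA 0.7.13 for alignment to the mm10 build, Picard for duplicates and MACS2 2.1.1.20160309 for narrow peaks over H3, at a stated q of 0.05. The deposited lists hold some peaks above it, 522 to 4372 in the H3K4me1 lists. The deposited columns are fold enrichment (a linear ratio to H3), −log10 p-value, −log10 q-value and an integer score. Fold and q were compared only within a list, and the score was not used. The lists hold no read counts, so the depth of each library is unknown and peak number varies with it.

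Peaks were merged at 1 bp overlap, placed against GENCODE M21 (exon, then intron, then intergenic) and assigned to the nearest transcript start with Python 3.11.15, pandas 2.3.3 and scipy 1.17.1. Sequence came from the RefSeq mm10 assembly. Shares carry exact Clopper-Pearson 95% intervals. The overlap and distance code was tested on simulated data. Nothing was tested between genotypes. Named genes were up to 3 per gene list by number of members, the 10 genes with most members, and the nearest genes of the 10 strongest and of the acetylated members; Meis1 and Arid1b were added after values were seen. Results for a few genes that this rule names are not reported here. The members and gene lists were chosen with earlier results of these data known. Alternatives changed merging, peak strength, list size, distance to starts and the motif window.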

Additional observations from a re-analysis of the deposited data

How the results depend on the processing

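No paired analysis was possible because each genotype and mark has 1 library, replicate numbers are shared only as the number 1, and no test was made. The number of gained regions stayed between 2456 and 3359 when the distance to starts, the starts used, the overlap of the peaks or the sizes of the lists were changed, and so stayed within 1.5 times the 2911 reported. It fell to 1911 with peaks within 500 bp merged, to 1597 without regions that had a WT or Ep300Δ/Δ peak within 1000 bp, and to 500 with both peaks above the median fold. The ratio of gained to mirror regions lay between 1.29 and 1.63 under these settings. It was 5.11 with peaks of −log10 q of at least 5, where 3081 regions were gained and 603 lost; by that limit the lists held 74532 peaks in Tet2-/-, 64950 in WT, 53254 in Ep300Δ/Δ Tet2-/- and 40812 in Ep300Δ/Δ, and most of the gained regions were not those reported, since 659 of the 2911 had both peaks above it. The same limit gave H3K27ac at 5.87% in WT and 7.17% in Tet2-/-, and H3K4me3 at 7.21% and 8.99%. With peaks within 500 bp merged, WT shares were 1.83% for H3K27ac and 2.35% for H3K4me3. Without a WT or Ep300Δ/Δ peak within 1000 bp, H3K27ac was at 1.25% in WT and 2.19% in Tet2-/-, and H3K4me3 at 2.25% in WT. With both peaks above the median fold, the Tet2-/- shares were 6.2% and 5.4%. Counting H3K27ac peaks within 500 bp gave 6.11% in WT and 5.32% in Tet2-/-, so WT was then the higher, and H3K27ac lists of equal size gave 1.2% and 1.34%, with Ep300Δ/Δ at 0.893% and Ep300Δ/Δ Tet2-/- the highest at 2.23%. The cause of these shifts was not tested. Motif shares around the Ep300Δ/Δ Tet2-/- summit, an alternative chosen after seeing the data, gave ETS at 10.1% and GATA at 2.78%. Peak lists hold no read depth, so what depth limits cannot be given.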
